A study of Glycine max with 8 samples.

Results

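The 5 genes described here are the 4 soybean copies of TOC1 and the gene PRR3b, also named Tof12, which encode pseudo-response regulators of the circadian clock. They were chosen by gene ID, and all 5 of the 5 IDs were found among the 31785 genes listed. The TOC1 copies are Glyma.04G166300.Wm82.a4.v1, Glyma.06G196200.Wm82.a4.v1, Glyma.05G025000.Wm82.a4.v1 and Glyma.17G102200.Wm82.a4.v1, and they are called here by their chromosomes, 4, 6, 5 and 17. PRR3b is Glyma.12G073900.Wm82.a4.v1 on chromosome 12. The names came with the list of IDs, since the table itself gives IDs only, and they were not checked against a sequence or annotation. No sequence of these genes was used here.

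Messenger RNA was measured by RNA sequencing in mature leaves of soybean (Glycine max), in wild type (WT) and in the line labelled OX5, with 4 libraries per line and 8 in all. Both lines received enough phosphorus, and leaves were taken at R6, when seeds fill the pod. The labels name no altered gene, promoter or cultivar for OX5, and it is 1 line. They also do not give the hour of harvest. Nothing says that the libraries of a line are from different plants, so the p-values reflect spread among samples that may be technical replicates. In whole leaves, more RNA per cell and more cells that express a gene cannot be told apart.

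Pseudo-response regulators carry a receiver-like domain that lacks the phosphate-accepting residue and a CCT domain that contacts DNA. In Arabidopsis, TOC1 rises toward evening and represses the morning genes CCA1 and LHY, while earlier members of the family act in sequence through the day. PRR3 of Arabidopsis binds TOC1 and shields it from breakdown by the F-box protein ZEITLUPE. In soybean, PRR3b represses LHY genes and thereby affects flowering time under long days, and many cultivated varieties carry a truncated form of it. Soybean is an ancient polyploid, which is why a gene single in Arabidopsis can have several copies here.

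All 4 TOC1 copies rose in OX5 leaves, by 2.47-fold to 4.75-fold as ratios of mean FPKM, while PRR3b showed no difference that passed the test. FPKM is the number of fragments per kilobase of gene, scaled to library depth. The chromosome 17 copy, the lowest of the 4 in WT, showed the largest ratio, and the chromosome 5 copy, the highest of the 4, showed the smallest. Of the 5 genes, 4 rose and 0 fell at a limma Benjamini-Hochberg adjusted p under 0.05. Among all 30424 genes tested, 1.38% rose and 1.01% fell, 2.4% in all. The median log2 fold change was 1.46 over the TOC1 copies and 0.04 over all genes tested.

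**Figure D1:**
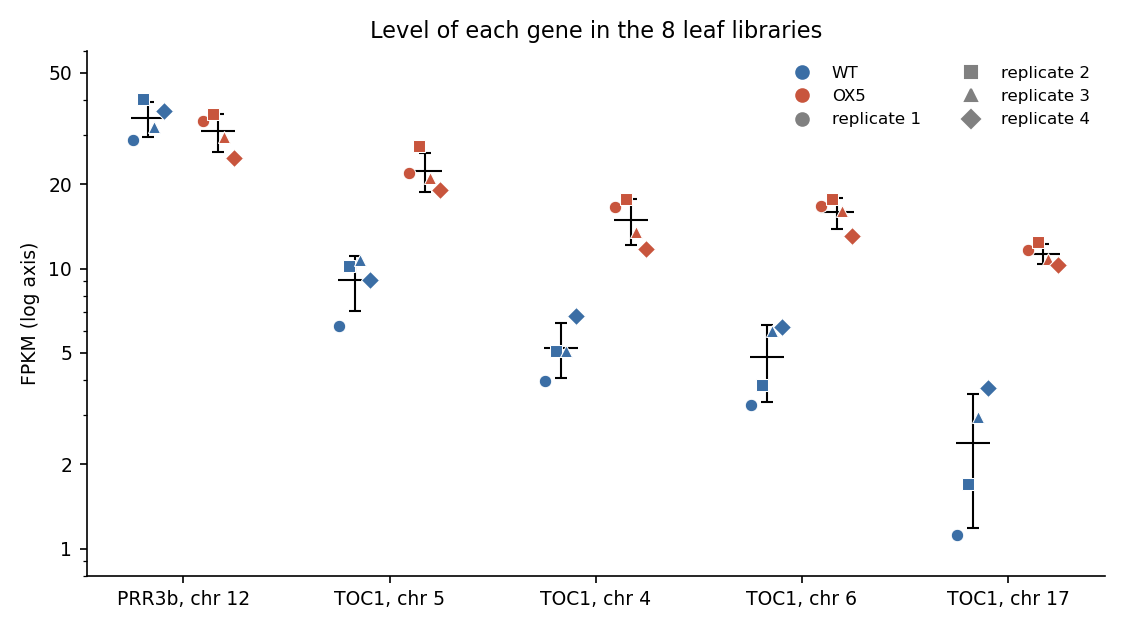
FPKM on a log axis for each gene (x axis) in WT (blue) and OX5 (red), with 1 point per library, its shape giving the replicate number, and black bars for the mean and SD of 4 libraries. For each TOC1 copy every red point lies above every blue point, while the PRR3b points of the lines overlap.

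The chromosome 4 copy had 3.97, 5.09, 5.09 and 6.74 FPKM in the WT libraries, by replicate number, against 16.6, 17.8, 13.5 and 11.8 FPKM in those of OX5. Every OX5 library was above every WT library, and the lowest OX5 value was 1.75 times the highest WT value. The means were 5.22 ± 1.14 FPKM in WT and 14.9 ± 2.76 FPKM in OX5 (SD, n = 4 each), a ratio of 2.85. The fitted log2 fold change was 1.36 (SE 0.18), with a limma adjusted p of 0.012. Fitted changes are on log2(FPKM + 1), a scale that shrinks the change of low genes.

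The chromosome 6 copy had 3.26, 3.83, 6.01 and 6.19 FPKM in the WT libraries, by replicate number, against 16.7, 17.8, 16.1 and 13.0 FPKM in those of OX5. Its lines did not overlap either, with the lowest OX5 library at 2.11 times the highest WT library. Its mean went from 4.82 ± 1.49 to 15.9 ± 2.03 FPKM (SD, n = 4 each), a ratio of 3.30 and a log2 fold change of 1.57 (SE 0.20, limma adjusted p = 0.0107).

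The chromosome 5 copy was the most abundant TOC1 copy in every library. It had 6.22, 10.3, 10.7 and 9.09 FPKM in the WT libraries, by replicate number, against 21.9, 27.4, 21.0 and 19.2 FPKM in those of OX5. WT replicate 1 was the low library in WT, and the lowest OX5 value was 1.79 times the highest WT value. The mean went from 9.07 ± 2.02 to 22.4 ± 3.54 FPKM (SD, n = 4 each), a ratio of 2.47 and a log2 fold change of 1.23 (SE 0.18, limma adjusted p = 0.0177).

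The chromosome 17 copy was the least abundant of the 4 in every library, and its WT libraries were the most spread. It had 1.12, 1.69, 2.95 and 3.76 FPKM in the WT libraries, by replicate number, against 11.6, 12.5, 10.8 and 10.3 FPKM in those of OX5. The WT values spanned 3.36-fold and the OX5 values 1.21-fold, and the lowest OX5 library was at 2.75 times the highest WT library. The mean went from 2.38 ± 1.19 to 11.3 ± 0.945 FPKM (SD, n = 4 each), a ratio of 4.75 and a log2 fold change of 1.93 (SE 0.24, limma adjusted p = 0.0107). Its lowest library, WT replicate 1, still held 70 reads, for which counting error alone gives an exact 95% Poisson interval of 0.872 to 1.41 FPKM.

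PRR3b had 28.9, 40.3, 32.1 and 36.6 FPKM in the WT libraries, by replicate number, against 33.7, 35.8, 29.5 and 24.8 FPKM in those of OX5. The lines overlapped, the highest library being WT replicate 2 and the lowest OX5 replicate 4. The means were 34.5 ± 5.02 FPKM in WT and 30.9 ± 4.84 FPKM in OX5 (SD, n = 4 each), a ratio of 0.898. Its log2 fold change of −0.15 had a 95% interval of −0.49 to 0.19 (SE 0.15), and limma gave an adjusted p of 0.585. On the FPKM + 1 scale that interval runs from 0.711-fold to 1.14-fold, so it excludes a rise as large as that fitted for any TOC1 copy but not a modest change in either direction.

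**Figure D2:**
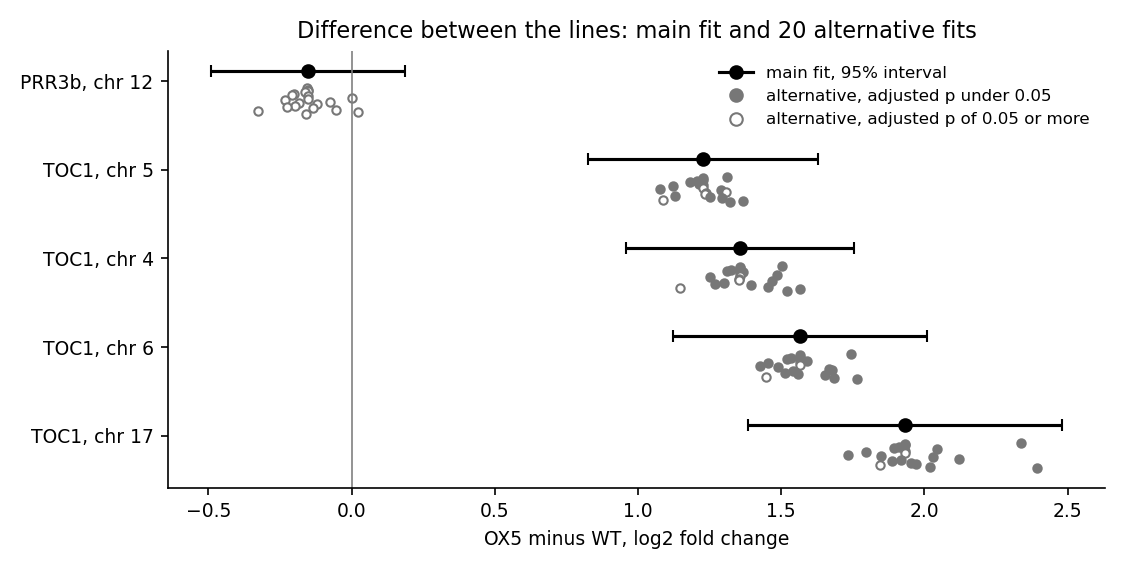
OX5 minus WT log2 fold change (x axis) of each gene (y axis), with the main fit and its 95% interval in black and 20 alternative fits as small circles, filled where the adjusted p is under 0.05. All TOC1 circles lie above 1 and the PRR3b circles lie between −0.33 and 0.02.

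Ranked by log2 fold change among the 30424 genes tested, the TOC1 copies on chromosomes 17, 6, 4 and 5 took places 36, 87, 168 and 244 from the largest rise down, and PRR3b took place 22031. The TOC1 places depended on the fit and its scale. On log2(FPKM + 0.1) they were 79, 216, 381 and 576, and limma-voom on recovered reads gave 107, 282, 458 and 692. Leaving out WT replicate 3 gave 26, 77, 188 and 214. With library quality weights, the chromosome 4 copy (295) came before the chromosome 6 copy (321). Each TOC1 copy was among the genes that rose at least 2-fold past the adjusted threshold, which were 0.578% of all genes tested. No overlap between lines with OX5 higher was seen for 8.87% of all genes tested, and no overlap in either direction for 14.2%, so separation of the 8 libraries by itself was not rare.

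**Figure D3:**
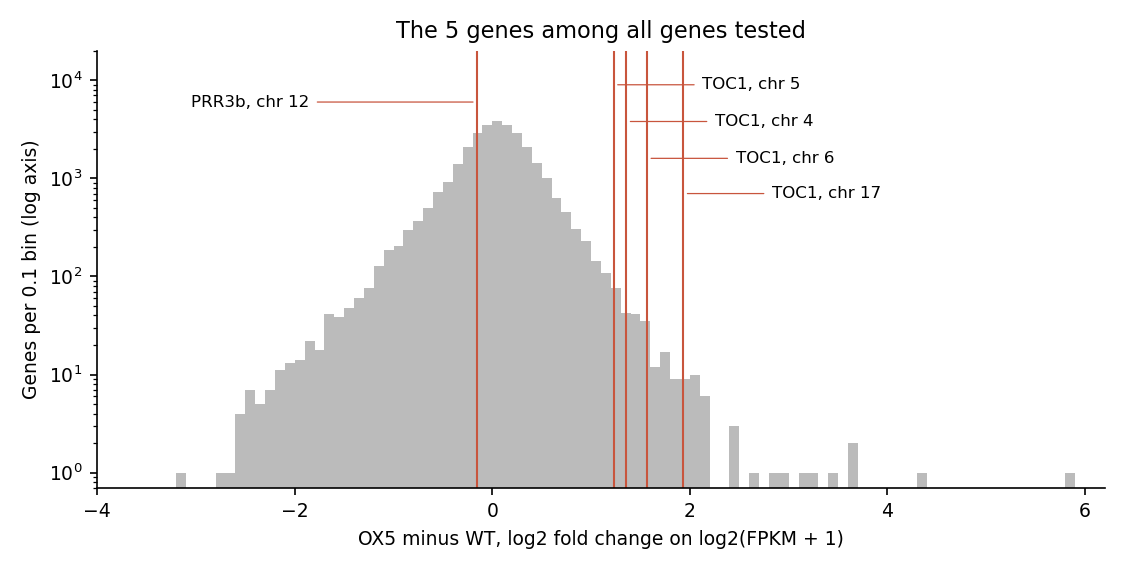
Number of genes (y axis, log scale) by OX5 minus WT log2 fold change on log2(FPKM + 1) (x axis) for the 30424 genes tested, with red lines at the 5 genes. The TOC1 copies lie in the right tail, at 1.23 to 1.93, and PRR3b lies at −0.15, inside the bulk.

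The calls rested in part on which libraries were used, and the OX5 libraries fell into pairs. OX5 replicates 1 and 2 had scores of 69.8 and 88.6 on the first principal component of all genes (44.8% of the variance), OX5 replicates 3 and 4 had −12.6 and −19.8, and the WT libraries lay between −40.5 and −23.2. Within OX5, all 5 genes were highest in replicate 2, followed by replicates 1, 3 and 4, the same order as those scores; the part of this component in the result was not tested. Without OX5 replicates 1 and 2, the TOC1 log2 fold changes were 1.15, 1.45, 1.09 and 1.85 for chromosomes 4, 6, 5 and 17, with limma adjusted p from 0.0571 to 0.0758, and 0 of the 5 genes were called. Without OX5 replicates 3 and 4 they were 1.56, 1.68, 1.37 and 2.02, all called. The value for PRR3b was −0.33 without OX5 replicates 1 and 2, and 0.02 without OX5 replicates 3 and 4. Leaving out WT replicate 3 ended the calls of the chromosome 4 copy (log2 fold change 1.35, limma adjusted p = 0.0586) and the chromosome 5 copy (1.31, adjusted p = 0.0556). Leaving out OX5 replicate 1 ended that of the chromosome 5 copy alone (1.23, adjusted p = 0.0593).

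The order of the 5 levels was almost the same in both lines. FPKM is per length, so levels of different genes can be set side by side within a library. PRR3b was above the chromosome 5 copy in 8 of 8 libraries, with a mean log2(FPKM + 1) difference of 1.14 (SD 0.757; two-sided exact sign-flip permutation p = 0.00781, adjusted p = 0.0104 over 4 neighbouring pairs). That gap averaged 1.83 in WT and 0.45 in OX5. The chromosome 5 copy was above the chromosome 6 copy in 8 of 8 libraries by 0.63 (SD 0.279), and the chromosome 4 copy was above the chromosome 17 copy in 8 of 8 by 0.65 (SD 0.383), each with an exact permutation p of 0.00781 and an adjusted p of 0.0104. This p is the smallest that 8 libraries allow. The neighbouring pairs were picked by mean level in these same 8 libraries, both lines together, so the p-values for order are descriptions. The chromosome 6 and 4 copies could not be ordered over the 8 libraries, since the former was higher in 4 of 8. The mean difference was −0.01 (SD 0.202, exact permutation p = 0.945, adjusted p = 0.945). It averaged −0.11 in WT and 0.09 in OX5, so the pooled value joins opposite leanings of the lines, which were not tested apart.

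In terms of rank among all listed genes in a library, each TOC1 copy stood higher in every OX5 library than in any WT library. The chromosome 17 copy was at percentile 15.4 to 37.7 in WT and 65.3 to 67.9 in OX5. The chromosome 5 copy was at 51.8 to 65.2 in WT and 79.8 to 85.6 in OX5. PRR3b stayed between percentiles 84.5 and 91.0 over all 8 libraries.

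Added together, the 4 copies had 14.6, 20.9, 24.8 and 25.8 FPKM in the WT libraries, by replicate number, against 66.9, 75.4, 61.3 and 54.3 FPKM in those of OX5. The sum was lowest in WT replicate 1 and highest in OX5 replicate 2, with no overlap between lines. Its mean was 21.5 ± 5.08 FPKM in WT and 64.5 ± 8.91 FPKM in OX5 (SD, n = 4 each), a ratio of 3.00. PRR3b was at 1.66 ± 0.351 times the summed TOC1 level in WT and 0.479 ± 0.0194 times in OX5 (SD, n = 4 each). In every WT library PRR3b exceeded the summed TOC1 level, and in every OX5 library it lay below it.

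**Figure D4:**
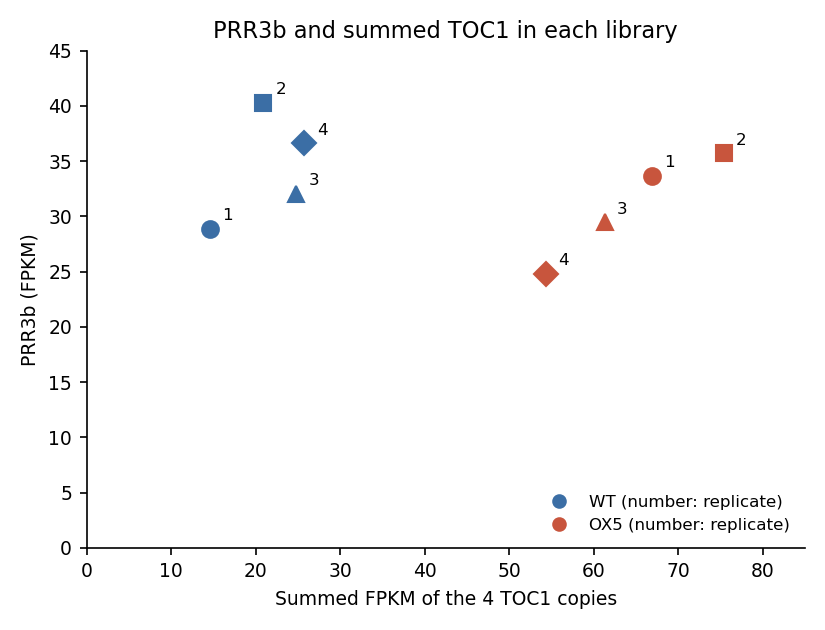
PRR3b FPKM (y axis) against the summed FPKM of the 4 TOC1 copies (x axis), with 1 point per library in WT (blue) and OX5 (red), numbered by replicate. The lines separate along the x axis, at 14.6 to 25.8 and 54.3 to 75.4, and overlap along the y axis.

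The share of each copy in the summed TOC1 level was compared between the lines. The chromosome 5 copy made up 42.6% ± 5.68 of the summed FPKM in WT and 34.7% ± 1.49 in OX5, and the chromosome 17 copy 10.6% ± 3.27 and 17.6% ± 1.03 (SD, n = 4 each). The chromosome 4 copy made up 24.6% ± 2.93 and 23.0% ± 1.46, and the chromosome 6 copy 22.3% ± 2.72 and 24.7% ± 1.17. The share of the chromosome 17 copy was higher in every OX5 library, at 16.6% to 19.04%, than in any WT library, at 7.68% to 14.6%. The two-sided exact permutation p was 0.0286 for that share, the smallest that 4 against 4 libraries allow, and 0.0571 for the chromosome 5 share, with an adjusted p of 0.114 for both over 4 shares. A single share at the smallest possible p cannot pass that adjustment, so the test says little on whether the shares differ. For the chromosome 4 and 6 shares the exact permutation p was 0.4 and 0.171 (adjusted p = 0.4 and 0.229).

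**Figure D5:**
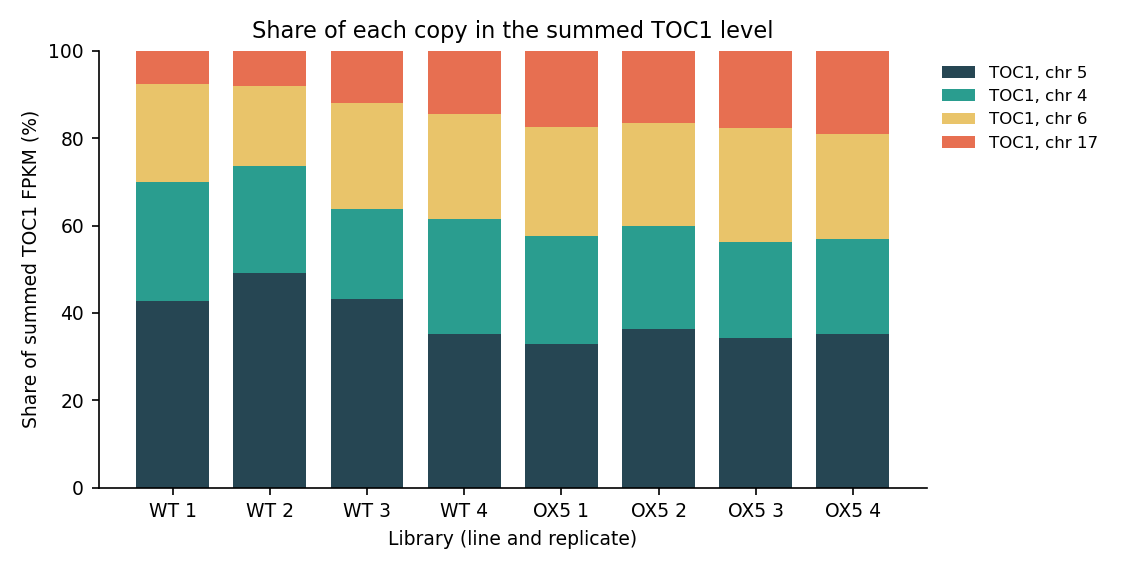
Share of each TOC1 copy in the summed TOC1 FPKM (y axis, percent) in each library (x axis), as stacked bars that add up to 100%. The chromosome 17 part covers 7.68% to 14.6% in WT and 16.6% to 19.04% in OX5.

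Ratios between genes within a library do not depend on the scaling between libraries. The log2 ratios of all 10 pairs of the 5 genes were compared between the lines, a test chosen after the values had been seen. The mean log2 ratio of PRR3b to each TOC1 copy differed between OX5 and WT by −2.56 for chromosome 17, −1.92 for chromosome 6, −1.68 for chromosome 4 and −1.48 for chromosome 5. These 4 values restate the levels above and are given as a description. The ratio of the chromosome 17 copy to each other TOC1 copy was higher in OX5. The difference was 1.08 over chromosome 5, 0.88 over chromosome 4 and 0.63 over chromosome 6. Each had no overlap between lines, a two-sided exact permutation p of 0.0286 and an adjusted p of 0.0408 over the 10 pairs. The 4 PRR3b ratios were also at this smallest possible p, as 7 of the 10 pairs were, and they lowered that adjusted p. Their outcome followed from the levels, so passing the threshold says little on whether the chromosome 17 ratios differ. Among the other three TOC1 copies no ratio passed, with the chromosome 5 over chromosome 6 ratio changing by −0.45 (exact permutation p = 0.0571, adjusted p = 0.0714). With any 1 OX5 library left out, the chromosome 17 ratios had exact permutation adjusted p of 0.0816 to 0.107 and no longer passed, at sizes of 0.58 to 1.13. The PRR3b ratios, with no overlap between lines, did not pass there either (adjusted p = 0.0714). Failing with so few libraries therefore says little on the ratios. With any 1 WT library left out, the chromosome 17 ratios had adjusted p of 0.0357 to 0.0408, at sizes of 0.49 to 1.34, again with the PRR3b ratios counted in.

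The spread between libraries was widest for the chromosome 17 copy in WT and narrowest for the same copy in OX5. Its coefficient of variation was 50.2% in WT, where counting error per library was 6.48% to 11.95%, and 8.36% in OX5, where counting error was 3.56% to 4.08%. PRR3b had coefficients of variation of 14.6% and 15.7%, with counting error of 1.74% to 2.30%. The other three TOC1 copies lay between 21.9% and 30.9% in WT and between 12.8% and 18.5% in OX5. WT replicate 1 was the lowest WT library for all 5 genes.

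Deviations from the line means had positive correlations for all pairs of the 5 genes, PRR3b included. Over the 8 libraries, the deviations of the chromosome 6 and 17 copies had a Pearson r of 0.945, and the other pairs of TOC1 copies had r between 0.620 and 0.795. PRR3b had r of 0.816 with the chromosome 4 copy, 0.733 with chromosome 5, 0.436 with chromosome 6 and 0.368 with chromosome 17. These values are descriptions over 8 points that share library, depth and scaling.

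By Pearson r of log2(FPKM + 1) over the 8 libraries, among genes averaging 5 FPKM or more, the closest gene to the chromosome 6 copy was the chromosome 17 copy, and the reverse also held (r = 0.994). Such r values take in the difference between lines and are given as descriptions. The nearest TOC1 copy was only at place 10 for the chromosome 4 copy and at place 25 for the chromosome 5 copy. Of the 18000 other genes compared, 0.383% to 0.839% reached r of 0.95 with a given TOC1 copy, and all other TOC1 copies were among them. The 2 highest values for genes outside the 5 were those of Glyma.08G045500.Wm82.a4.v1 with the chromosome 5 copy (r = 0.994) and Glyma.19G200800.Wm82.a4.v1 with the chromosome 4 copy (r = 0.994). The former had 14.5 ± 0.941 FPKM in WT and 18.9 ± 1.14 FPKM in OX5, and the latter 4.24 ± 0.580 and 8.28 ± 0.860 FPKM (SD, n = 4 each). None of the TOC1 copies was close to PRR3b on this measure, with r between −0.25 and −0.11.

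How reads shared between similar TOC1 copies were assigned or dropped is not given in the sources used here. Both the split between copies and their sum may depend on it, which was not tested.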

How the data were processed

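The deposited table holds FPKM values made by the authors, with 1 column per library. Per the submitters' processing notes, HTSeq 0.6.0, HISAT2 2.1.0, Bowtie2 2.2.3, TopHat2 and CASAVA were used, with no roles stated. Build, strand setting and treatment of shared reads: not given in the sources used here. A single row without a gene was left out.

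FPKM values step by the worth of 1 read at each gene, so reads were recovered for 31774 of 31785 genes (within 0.1 read), giving 18763217 to 19153023 reads per library in WT and 17526418 to 19110703 in OX5. Intervals from them cover counting error only. After values were moved by up to 2%, 0% were solved with no more reads than before.

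Lines were compared by limma 3.58.1 in R 4.3.3, using a variance trend, on log2(FPKM + 1) for the 30424 genes averaging 0.5 FPKM or more, adjusted by Benjamini-Hochberg over all of them, with a threshold of 0.05. All 5 genes passed the filter. Tested on simulated reads for OX5 against WT (30424 genes, noise independent between libraries), this found 69 of the 100 genes given a 2-fold change. It found 100 of the 100 given a 4-fold change, and 3 of its 172 calls were false. The simulated noise was set alike for all genes and held no split such as that of the OX5 libraries. These rates may therefore not carry over to the real data. Shares, ratios and order used exact permutation tests in Python 3.11.15 (numpy 2.4.6).

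The members and lists were chosen with earlier results of these data known, and the ratio tests and limma-voom were added after the values had been seen. The rule for named genes was the 5 genes and, for each, the 2 genes of highest Pearson r, of which only 2 IDs were printed. The reference table pairs none of the IDs with a name or description, so the list of other clock genes and the check of leaf markers were not made.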

Additional observations from a re-analysis of the deposited data

How the results depend on the processing

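Log2 fold changes were refitted under 20 alternatives, of which limma-voom on recovered reads was chosen after seeing the data. No TOC1 copy changed direction. The calls held in 17, 18, 16 and 18 of 20 fits for chromosomes 4, 6, 5 and 17. With 1 library left out, values ran from 1.25 to 1.47, 1.43 to 1.68, 1.08 to 1.31 and 1.73 to 2.12. Without OX5 replicates 1 and 2 they were 1.15, 1.45, 1.09 and 1.85, none called. PRR3b passed in 0 of 20 fits, and its value became 0.00019 with library quality weights and 0.021 without OX5 replicates 3 and 4.

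With the replicate number as a block, the values stayed at 1.36, 1.57, 1.23 and 1.93 with adjusted p of 0.0657, 0.0607, 0.0572 and 0.0548, so 0 of the 5 genes passed, and 56 genes in all. Same-numbered WT and OX5 libraries had deviations correlated at −0.06, 0.07, 0.13 and −0.06. All pairs of a WT and an OX5 library ranged from −0.17 to 0.13. The labels do not say that the numbers pair samples, and these values cannot settle whether same-numbered libraries share a harvest or batch.

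Of the 5 genes, 4 were called, 0 without OX5 replicates 1 and 2, and 2 to 4 with 1 library left out. All genes called numbered 729, with 9504 under library quality weights, 242 without OX5 replicates 1 and 2, 5503 without 3 and 4, 433 with limma-voom, and 58 (without WT replicate 3) to 761 (without OX5 replicate 3) with 1 library left out. Rescaling to a sum of 1000000 turned 421 rises of 729 calls into 246 of 561 and kept all TOC1 calls.

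Shares passed in no fit with 1 library left out, and the share test cannot pass with 4 against 2 libraries. The chromosome 6 minus 4 difference of −0.01 ran from −0.045 to 0.036 with 1 library left out, changing sign to 0.02, 0.036 and 0.0041 without WT replicates 1, 2 and 4. The other three differences in order of level passed in all 12 alternatives. Each had the same sign in 8 of 8 libraries, so the smallest possible p was fixed whichever libraries were left out. Passing there adds no support. The chromosome 6 to 4 ratio passed without WT replicate 3 (0.37), and chromosome 5 to 6 without WT replicate 4 (−0.57). Each had an exact permutation adjusted p of 0.0357 over the 10 pairs, again with the PRR3b ratios counted in. The cause was not tested. Clock list alternatives were not run.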

Other observations

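By Dixon's test at the 95% level (the gap of the outermost library to its neighbour over the whole range), no lone extreme value was found in 20 sets of 4 libraries, made up of the level of each gene, the share of each TOC1 copy and the summed TOC1 level in each line.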
